A study of Mus musculus with 4 samples.

Results

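The 10 genes described here encode Toll-like receptors (TLRs) and the proteins that work most closely with them: Tlr1, Tlr2, Tlr4, Tlr6, Tlr7, Tlr9, the co-receptors Ly96 and Cd14, the adaptor Myd88 and the kinase Irak4. They were chosen by gene symbol, and all 10 were found among the 23997 genes of the deposited table. RNA was sequenced from T follicular helper (Tfh) cells, a CD4 subset that supports germinal centre B cells, taken from lymph nodes and spleens of 13-week-old C57BL/6 mice. Wild-type (WT) mice gave 2 libraries and Apoe-/- mice gave 2; the latter lack apolipoprotein E and are prone to high plasma cholesterol and atherosclerosis; the labels give the groups no other allele, agent or diet. The labels do not say how the cells were sorted or whether a library is 1 animal or a pool, so the p-values rest on the spread between libraries alone, and that spread may be technical.

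Toll-like receptors recognise molecules of microbes and of damaged cells. TLR2 pairs with TLR1 or TLR6 at the cell surface and binds lipoproteins, TLR4 binds bacterial lipopolysaccharide together with MD-2 (encoded by Ly96), to which CD14 delivers it, and TLR7 and TLR9 sense RNA and DNA in endosomes. These receptors signal through the adaptor MyD88, which recruits IRAK4 and leads to NF-kB activation; in T cells MyD88 and IRAK4 also carry the signals of the receptors for interleukin-1 and interleukin-18, whereas TLRs themselves are best known from macrophages, dendritic cells and B cells.

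Values are FPKM (sequenced fragments, scaled to transcript length and to library size), which can be compared between genes. Apoe itself was at 145 and 128 FPKM in the WT libraries and at 5.09 and 5.21 FPKM in the Apoe-/- libraries. FPKM totals ran from 522371 to 551290 per library, read depth is unknown, and 11187 genes with a mean of 1 FPKM or more were tested. T cell and Tfh markers (Cd3e, Cd4, Cxcr5, Bcl6, Pdcd1, Icos and Il21) summed to 1390 to 1407 FPKM in WT and 1427 to 1447 FPKM in Apoe-/- libraries. By limma's test described below 0 of 7 passed and 3 had an unadjusted p under 0.05, against 1.83% and 19.9% of all tested genes. Cd4 was at 367 ± 2.41 (SD, n = 2) and 407 ± 1.497 FPKM and Cd3e at 290 ± 12.9 and 302 ± 18.0 FPKM in WT and Apoe-/- cells. The 3 with an unadjusted p under 0.05, named after their values were seen, went in different directions without overlap: Pdcd1 was at 283 and 260 FPKM in WT and 203 and 179 FPKM in Apoe-/- libraries, Cxcr5 at 176 and 162 against 223 and 204 FPKM, and Bcl6 at 94.1 and 96.4 against 116 and 108 FPKM. Markers of other cells were present too: B cell markers summed to 290 to 295 FPKM in WT and 172 to 180 FPKM in Apoe-/- libraries, and macrophage and monocyte markers to 249 to 283 and 315 to 354 FPKM. In these bulk samples fewer cells of a type and less RNA per cell cannot be told apart.

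Levels differed widely between the 10 genes. Over all 4 libraries Myd88 averaged 41.9 FPKM and Tlr1 39.5 FPKM, above 79.99% and 78.5% of the tested genes. Irak4 followed at 16.9 FPKM (52.9%) and Ly96 at 9.56 FPKM (36.0%). The remaining 6 lay close to the lower limit of the tested genes: Tlr2, Tlr7, Tlr9, Cd14, Tlr6 and Tlr4 averaged 3.77, 3.36, 3.16, 3.14, 2.05 and 1.64 FPKM. In this order Myd88 and Tlr1 overlapped in their ranges over the libraries, as did each neighbouring pair from Tlr2 down to Tlr4, while Tlr1, Irak4 and Ly96 were each apart from the next gene. The other Toll-like receptor genes were lower still in mean: Tlr12 averaged 0.803 and 1.31 FPKM in WT and Apoe-/- cells, and Tlr3, Tlr5, Tlr8, Tlr11 and Tlr13 stayed under 1 FPKM in every library.

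**Figure D1:**
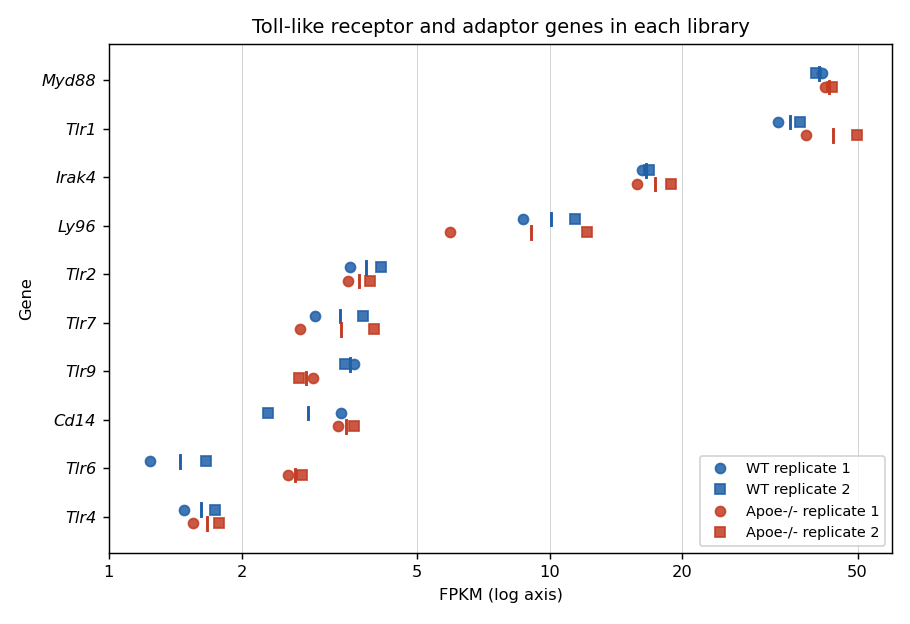
FPKM (log axis) of the 10 genes in each library, ordered by mean level; blue points are WT, red points Apoe-/-, circles replicate 1, squares replicate 2 and vertical ticks group means. Myd88 and Tlr1 lie near 40 FPKM and 6 genes lie between 1 and 5 FPKM; the genotypes are apart in Tlr6, Tlr9, Tlr1 and Myd88 and overlap in the other 6.

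None of the 10 genes passed the test between genotypes (limma on log2(FPKM + 1), Benjamini-Hochberg adjusted p under 0.05). Over all tested genes 205, or 1.83%, passed (121 to 618 genes with 1 library left out), so a count of 0 of 10 is near the background. At an unadjusted p under 0.05 the count was 1 of 10, Tlr6, where the background was 19.9%. The genotypes did not overlap in 4 of the 10, 3 of them higher and 1 lower in Apoe-/- cells, against 50.4% of all tested genes. The median log2 difference was 0.04 for the 10 genes and 0.00 for all tested genes. A gene that did not pass is not shown to be equal, and the 95% interval of each difference is therefore given below.

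**Figure D2:**
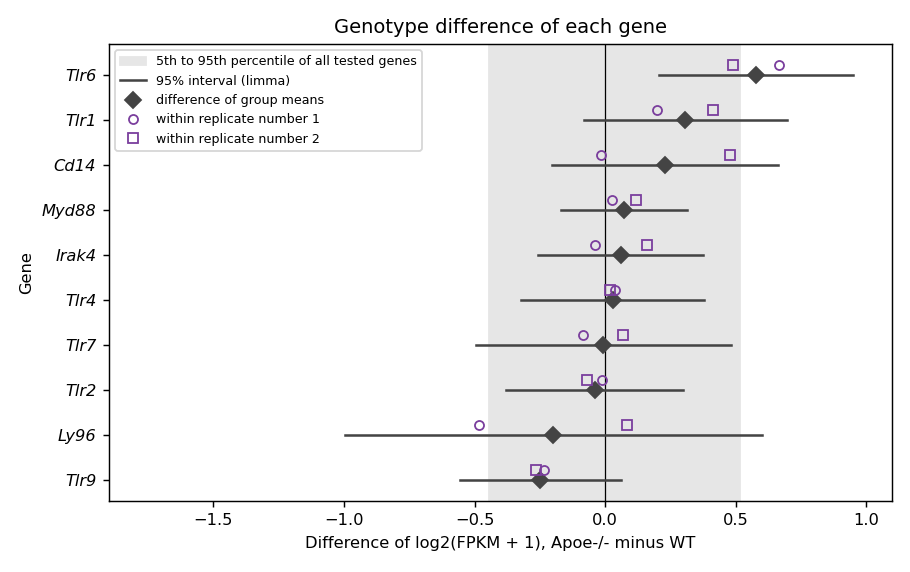
Difference of log2(FPKM + 1), Apoe-/- minus WT, for each gene (diamonds) with its 95% interval from limma (lines); open circles and squares are the differences within replicate numbers 1 and 2, and the grey band spans the 5th to 95th percentile of all tested genes, -0.44 to 0.52. Tlr6, at 0.58, is the only gene whose interval leaves out 0, and Ly96 has the widest interval, -0.998 to 0.599.

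Among the lipoprotein receptors, Tlr2 (chromosome 3, 83836272 to 83841824, GRCm38), the shared partner, was low and close between genotypes. It was at 3.53 and 4.14 FPKM in WT and at 3.49 and 3.91 FPKM in Apoe-/- libraries. The groups overlapped (log2 difference -0.04, 95% interval -0.38 to 0.30, adjusted p = 0.898 by limma). Tlr1 (chromosome 5, 64924680 to 64933600), which pairs with TLR2 for triacylated lipoproteins, was at 33.1 and 37.1 FPKM in WT and at 38.1 and 49.8 FPKM in Apoe-/- libraries. Its groups did not overlap, but the spread within Apoe-/- was wide: the means were 35.1 ± 2.86 and 43.9 ± 8.21 FPKM (0.31, interval -0.08 to 0.70, adjusted p = 0.346 by limma). Within replicate numbers 1 and 2 the differences were 0.20 and 0.41. Tlr1 was thus 8.95 to 12.7 times the level of Tlr2 in each library.

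Tlr6 (chromosome 5, 64953092 to 64970942), the partner for diacylated lipoproteins, had the largest difference of the 10. It was at 1.24 and 1.66 FPKM in WT and at 2.55 and 2.74 FPKM in Apoe-/- libraries, so both Apoe-/- libraries lay above both WT ones. The means of 1.45 ± 0.302 and 2.64 ± 0.135 FPKM differed 1.82-fold, with a log2 difference of 0.58 ± 0.15 SE (interval 0.21 to 0.95, adjusted p = 0.126 by limma). Within replicate numbers 1 and 2 the difference was 0.67 and 0.49. Tlr1 stood 22.3 to 26.7 times above Tlr6 in WT and 14.97 to 18.2 times above it in Apoe-/- libraries.

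The values of Tlr1 and Tlr6 are less separate than those of the other members, because these neighbouring genes on the minus strand of chromosome 5 share sequence. In GENCODE M21 their coding sequences, 2385 and 2418 bases long, were identical at 75.6% of aligned bases. Of the 50-base words in the longest coding transcript of Tlr6, 12.6% also occurred in another gene's transcript, nearly all of them in Tlr1, and for Tlr1 the share was 15.3%. A Tlr6 level of 1 to 3 FPKM was thus measured beside a partly identical transcript at 33.1 to 49.8 FPKM. How fragments matching both were assigned is not given in the sources used here, and the part of Tlr1 fragments in the Tlr6 values was not tested. The longest run that both coding sequences share, 229 bases, is shown because fragments from inside it name neither gene; it is in capitals, with 25 bases on each side in lower case (Tlr1 at chr5:64925512-64925790 and Tlr6 at chr5:64953803-64954081, GRCm38, minus strand).
Tlr1: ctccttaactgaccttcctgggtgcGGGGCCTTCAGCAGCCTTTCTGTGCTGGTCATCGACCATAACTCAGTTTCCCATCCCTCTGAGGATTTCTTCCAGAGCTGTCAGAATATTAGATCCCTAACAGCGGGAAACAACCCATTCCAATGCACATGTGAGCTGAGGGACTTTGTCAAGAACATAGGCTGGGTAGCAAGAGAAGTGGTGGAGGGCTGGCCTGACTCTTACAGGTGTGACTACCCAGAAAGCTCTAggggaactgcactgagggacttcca
Tlr6: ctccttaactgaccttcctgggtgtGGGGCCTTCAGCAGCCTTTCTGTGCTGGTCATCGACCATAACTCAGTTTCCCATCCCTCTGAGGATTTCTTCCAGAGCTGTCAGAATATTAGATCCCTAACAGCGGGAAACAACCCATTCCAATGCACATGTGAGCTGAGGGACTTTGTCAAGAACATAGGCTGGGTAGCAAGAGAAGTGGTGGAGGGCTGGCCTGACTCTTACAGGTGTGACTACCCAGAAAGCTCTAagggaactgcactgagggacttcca

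By contrast, the gap-free stretch of 100 bases with the fewest identical positions, 46, shows where the paralogs can be told apart. Capitals mark bases that differ (Tlr1 at chr5:64926687-64926786 and Tlr6 at chr5:64954972-64955071, GRCm38, minus strand).
Tlr1: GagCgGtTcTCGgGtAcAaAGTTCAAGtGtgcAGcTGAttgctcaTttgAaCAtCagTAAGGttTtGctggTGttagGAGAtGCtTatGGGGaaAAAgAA
Tlr6: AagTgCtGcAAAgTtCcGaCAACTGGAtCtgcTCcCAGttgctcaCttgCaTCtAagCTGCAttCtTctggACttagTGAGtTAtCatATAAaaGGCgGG

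Genes of the lipopolysaccharide receptor were measured at low to middle levels, with no difference past the test. Tlr4 (chromosome 4, 66827551 to 66846581), the signaling receptor, was at 1.48 and 1.74 FPKM in WT and at 1.55 and 1.78 FPKM in Apoe-/- libraries (interval of the log2 difference -0.32 to 0.38, adjusted p = 0.932 by limma). The libraries numbered 2 were the higher ones in both genotypes, and the groups overlapped. Ly96 (chromosome 1, 16688456 to 16709605), the binding partner of TLR4, was at 8.70 and 11.4 FPKM in WT and at 5.94 and 12.2 FPKM in Apoe-/- libraries. The Apoe-/- libraries were the lowest and the highest of the 4, with differences of -0.48 and 0.08 within replicate numbers 1 and 2. Its pooled difference of -0.20 (interval -0.998 to 0.599, adjusted p = 0.769 by limma) became -0.66 without Apoe-/- replicate 2 and 0.26 without Apoe-/- replicate 1. Cd14 (chromosome 18, 36725064 to 36726815), which hands lipopolysaccharide to the complex, was at 3.36 and 2.30 FPKM in WT and at 3.31 and 3.59 FPKM in Apoe-/- libraries. WT replicate 2 was the lowest and the other 3 lay close together (0.23, interval -0.20 to 0.66, adjusted p = 0.514 by limma). That difference was 0.03 without WT replicate 2.

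The endosomal receptors Tlr7 and Tlr9 were both low, and neither passed the test between genotypes. Tlr7 (chromosome X, 167303380 to 167330574), which senses single-stranded RNA, was at 2.94 and 3.77 FPKM in WT and at 2.71 and 4.004 FPKM in Apoe-/- libraries. Its group means were 3.35 ± 0.586 and 3.36 ± 0.914 FPKM, and the spread within each genotype was larger than the difference between them (-0.01, interval -0.50 to 0.48, adjusted p = 0.989 by limma). Tlr9 (chromosome 9, 106222598 to 106226876), which senses unmethylated CpG DNA, was at 3.60 and 3.43 FPKM in WT and at 2.91 and 2.69 FPKM in Apoe-/- libraries. Both Apoe-/- libraries lay below both WT ones, with means of 3.52 ± 0.118 and 2.80 ± 0.152 FPKM (-0.25 ± 0.12 SE, interval -0.56 to 0.06, adjusted p = 0.336 by limma; -0.23 and -0.26 within numbers 1 and 2). Whether the 2 receptors differ from each other in their genotype difference was not tested.

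Both endosomal receptors are also expressed by B cells, and B cell markers were lower in the same libraries. All 9 B cell markers were lower in both Apoe-/- libraries than in both WT libraries (median log2 difference -0.75), none was at 0 in any library, and 3 of the 9 passed the test. Over all tested genes 22.9% were lower without overlap and 0.885% were called lower. Fcer2a, a B cell receptor for IgE, fell from 16.6 ± 0.310 to 6.48 ± 0.0644 FPKM (-1.24, adjusted p = 0.0148 by limma), Cr2, the complement receptor of B cells and follicular dendritic cells, from 10.7 to 3.79 FPKM, and the inhibitory B cell co-receptor gene Cd22 from 46.8 to 26.9 FPKM. The immunoglobulin signaling chains Cd79a and Cd79b were at 93.5 and 64.3 FPKM and at 49.99 and 34.4 FPKM in WT and Apoe-/- cells (adjusted p = 0.102 and 0.0762 by limma). The Cd22 call ended without WT replicate 1 (adjusted p = 0.118) or WT replicate 2 (0.123), and the Cr2 call without WT replicate 2 (0.0818) and with a mean of 5 FPKM or more required (0.0565); both also ended with no FPKM filter, and their ranges over all settings were 0.00149 to 0.123 and 0.000256 to 0.102. The part of B cell RNA in the Tlr7 and Tlr9 values was not tested.

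The adaptor and its kinase were close between genotypes. Myd88 (chromosome 9, 119335934 to 119340018) was at 41.5 and 40.3 FPKM in WT and at 42.2 and 43.8 FPKM in Apoe-/- libraries. Although the groups did not overlap, the means of 40.9 ± 0.857 and 43.0 ± 1.097 FPKM were 1.05-fold apart, and the interval of -0.17 to 0.31 was the narrowest of the 10 (0.07, adjusted p = 0.717 by limma). Irak4 (chromosome 15, 94543613 to 94568317) was at 16.3 and 16.8 FPKM in WT and at 15.8 and 18.9 FPKM in Apoe-/- libraries, which lay on either side of the WT libraries (0.06, interval -0.26 to 0.38, adjusted p = 0.828 by limma). Myd88 was 2.32 to 2.68 times the level of Irak4 in the 4 libraries. In GENCODE M21 the longest coding transcripts of Myd88 and Irak4 overlap exons of genes on the opposite strand, Acaa1a over 223 bases (11.4%) and Twf1 over 395 bases (11.5%). These neighbours were at 26.9 to 35.5 and 26.5 to 33.1 FPKM, and with no strand setting known their reads cannot be told apart from those of Myd88 and Irak4 there.

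Of 62 further genes of the pathway, in 6 lists, 50 were tested; in Apoe-/- cells 4 rose and 1 fell, against 0.948% and 0.885% of all tested genes in these directions. All 5 belong to lists of induced genes and of other receptors that use MyD88. The median difference of the 50 was 0.08, and the 6 medians ran from -0.16 to 0.34.

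**Figure D3:**
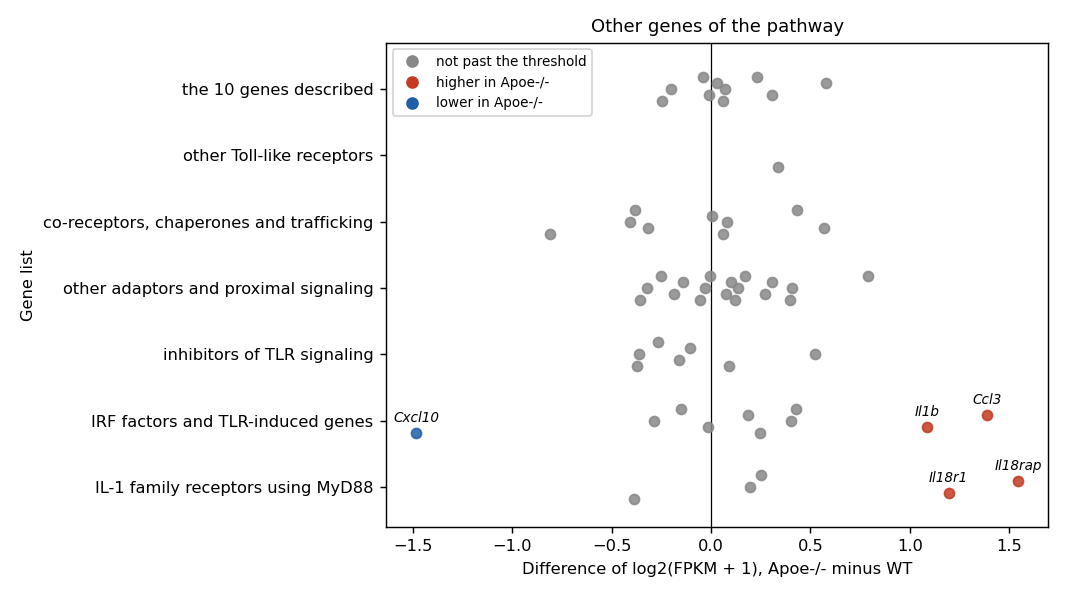
Difference of log2(FPKM + 1), Apoe-/- minus WT, for the tested genes of each list; red and blue points passed the test (higher and lower), grey points did not, and vertical offsets only separate points. The 10 genes described lie between -0.25 and 0.58, while Cxcl10, at -1.48, and Il18rap, at 1.55, are the ends of the pathway lists.

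Receptors for interleukin-18, which signal through MyD88 and IRAK4, rose. Of the 5 tested genes of the IL-1 receptor family, 2 rose, against 0.948% of all tested genes (list median 0.25). An unadjusted p under 0.05 by limma was found for 3 of these 5, against 19.9% of all tested genes. Il18rap, the accessory chain, was at 2.29 and 2.48 FPKM in WT and at 8.05 and 9.81 FPKM in Apoe-/- libraries, 3.74-fold apart in mean (1.55 ± 0.14 SE, adjusted p = 0.0148 by limma; 1.46 and 1.63 within numbers 1 and 2). Il18r1, the binding chain, was at 7.01 and 8.58 FPKM in WT and at 16.5 and 21.96 FPKM in Apoe-/- libraries (1.20 ± 0.18 SE, adjusted p = 0.0450 by limma; 1.13 and 1.26 within numbers 1 and 2). Every Apoe-/- library was above every WT library for both chains, as in 3077 of the 11187 tested genes. Myd88 and Irak4 in the same libraries differed by 0.07 and 0.06. The Il18r1 call ended without WT replicate 1 (adjusted p = 0.0835) and with a mean of 5 FPKM or more required (0.0541), with adjusted p of 0.000342 to 0.101 across settings. CD8 T and NK cell markers, from cells that also carry these receptors, summed to 17.1 to 17.9 FPKM in WT and 24.8 to 27.6 FPKM in Apoe-/- libraries. By limma 0 of 5 tested passed and 3 had an unadjusted p under 0.05, against 19.9% of all tested genes. None of the 7 markers was at 0. The most abundant of these, Cd8b1 and Klrb1c, were at 5.65 and 8.24 FPKM and at 4.52 and 7.31 FPKM in WT and Apoe-/- cells (adjusted p = 0.108 and 0.153 by limma), and their part in the receptor values was not tested.

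Genes that TLR signaling can induce moved in both directions. Of 10 tested genes in the list of IRF factors and induced genes, 2 rose and 1 fell (median 0.22). Over all tested genes 0.948% and 0.885% were called in these directions. An unadjusted p under 0.05 by limma was found for 4 of these 10, against 19.9% of all tested genes. Without overlap 6 were higher and 2 lower, against 3077 and 2562 of the 11187 tested genes. Cxcl10, a chemokine also induced by interferons, fell 2.84-fold, from 130 and 129 FPKM in the WT libraries to 45.4 and 45.9 FPKM in the Apoe-/- libraries (-1.48 ± 0.09 SE, adjusted p = 0.00802 by limma; -1.50 and -1.47 within numbers 1 and 2). Ccl3, a chemokine of activated myeloid and T cells, rose 2.83-fold, from 7.99 and 6.34 to 21.0 and 19.6 FPKM (1.39 ± 0.14, adjusted p = 0.0188 by limma; 1.29 and 1.49 within numbers 1 and 2). Il1b, an inflammatory cytokine gene mainly of myeloid cells, rose 2.49-fold, from 3.32 and 2.78 to 7.33 and 7.87 FPKM (1.09 ± 0.13, adjusted p = 0.0303 by limma; 0.95 and 1.23 within numbers 1 and 2). The Il1b call ended without WT replicate 2 (adjusted p = 0.0804; 0.00183 to 0.0832 over all settings). With no FPKM filter, the calls of Il1b, Ccl3, Il18r1 and Il18rap ended (adjusted p = 0.0832, 0.0605, 0.101 and 0.0560) and that of Cxcl10 held (0.0293), in each case the highest value of any setting. Nfkbiz, an NF-kB cofactor and the most abundant gene of the list, was at 110 ± 0.758 and 90.2 ± 0.188 FPKM (adjusted p = 0.159 by limma). Il6, Il12b, Ifnb1 and Ptgs2 were below the filter; Il6, named after its values were seen, was at 1.09 and 1.13 FPKM in WT and listed at 0 and 0.253 FPKM in Apoe-/- libraries.

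Several neutrophil markers were higher in the same libraries as Il1b and Ccl3. Myeloid cells also express Tlr2, Tlr4, Ly96 and Cd14. Neutrophil markers summed to 7.87 to 9.38 FPKM in WT and 51.1 to 68.0 FPKM in Apoe-/- libraries. Most of each sum came from S100a8 and S100a9. All 4 tested of 10 passed (S100a8, S100a9, Retnlg and Csf3r), but Retnlg met the filter only through the Apoe-/- libraries. Over all tested genes 0.948% were called higher. S100a8 and S100a9, which form calprotectin, rose from 2.53 to 25.1 and from 3.81 to 24.8 FPKM, and Retnlg and the receptor gene Csf3r from 0.211 to 4.24 and from 1.31 to 3.46 FPKM. Camp was listed at 0 in all 4 libraries. Ngp and Ltf reached at most 0.0452 and 0.0424 FPKM in any library, and their genotypes overlapped. Cxcr2, Lcn2 and Mmp8 were higher without overlap in Apoe-/- libraries. These other 5 were below the filter. Of 13 macrophage and monocyte markers 1 passed, Vsig4, a complement receptor listed at 0 in WT replicate 2, which rose from 0.0738 to 3.49 FPKM. Vsig4 too met the filter only through the Apoe-/- libraries. The list was mixed, with 10 differences above 0 and 3 below. Without overlap 7 were higher and 1 lower, against 3077 and 2562 of the 11187 tested genes. By limma 6 of the 13 had an unadjusted p under 0.05, against 19.9% of all tested genes. The complement genes C1qb and C1qc, the most abundant on that list, were at 49.8 and 66.6 FPKM and at 57.0 and 68.1 FPKM in WT and Apoe-/- cells (adjusted p = 0.210 and 0.471 by limma). Dendritic cell markers summed to 9.28 to 10.03 FPKM in WT and 19.3 to 21.1 FPKM in Apoe-/- libraries, none of 7 at 0. Of 5 tested 1 passed, the integrin gene Itgax (3.67 to 9.14 FPKM), against 0.948% of all tested genes called higher. By limma 4 of these 5 had an unadjusted p under 0.05, against 19.9% of all tested genes. All 5 were higher without overlap, against 3077 of the 11187 tested genes, but Zbtb46 averaged only 0.949 FPKM in WT. Xcr1 and Clec9a were below the filter, and Clec9a overlapped. Cd209a was at 1.69 and 3.07 FPKM in WT and Apoe-/- cells (adjusted p = 0.132 by limma). The Csf3r call ended without WT replicate 1 (0.0709) or 2 (0.121) and that of Itgax without WT replicate 2 (0.0571); with no FPKM filter these calls and that of Vsig4 ended (0.0858, 0.0672 and 0.0945), over ranges of 0.00417 to 0.121, 0.00173 to 0.0672 and 6.57e-07 to 0.0945. The part of myeloid RNA was not tested for any of the 10 genes described, Tlr6 and Tlr1 included, nor for Tirap, Il1b and Ccl3.

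**Figure D4:**
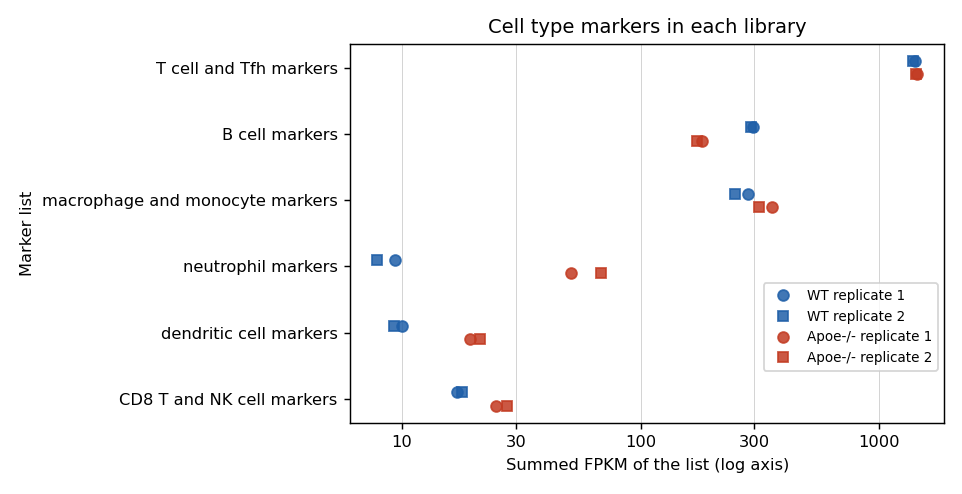
Summed FPKM (log axis) of each marker list in each library; blue marks WT and red Apoe-/-, circles replicate 1 and squares replicate 2. B cell markers are lower in Apoe-/- libraries (172 to 180 against 290 to 295 FPKM) and neutrophil markers higher (51.1 to 68.0 against 7.87 to 9.38 FPKM), while T cell and Tfh markers lie close together.

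Genes that fold, transport or cleave TLRs, or act as co-receptors, did not pass by limma: 0 of 9 tested in that list (median 0.00). An unadjusted p under 0.05 was found for 4 of the 9, against 19.9% of all tested genes. Lgmn, a protease that processes endosomal TLRs, was at 29.2 and 26.9 FPKM in WT and at 42.3 and 41.7 FPKM in Apoe-/- libraries, which did not overlap (0.57, interval 0.31 to 0.82, adjusted p = 0.07135 by limma). Hsp90b1, encoding gp96, the chaperone that folds most TLRs, was at 137 and 170 FPKM in WT and at 76.3 and 98.0 FPKM in Apoe-/- libraries (-0.81, interval -1.23 to -0.39, adjusted p = 0.0887 by limma). It passed without Apoe-/- replicate 2 (adjusted p = 0.00261; 0.000847 to 0.253 over all settings). Ctss, a cysteine protease of endosomes and the most abundant of the list, was at 167 ± 9.83 and 175 ± 14.2 FPKM (adjusted p = 0.783 by limma). Unc93b1, which carries TLR7 and TLR9 to endosomes, was at 54.9 ± 3.84 and 58.1 ± 2.27 FPKM (0.08, interval -0.18 to 0.34), and Cd180, a TLR-like receptor of B cells, was at 12.3 ± 0.0699 and 9.18 ± 0.0439 FPKM (-0.38, adjusted p = 0.1396 by limma); both were chosen after their values were seen.

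Other adaptors and proximal kinases also had 0 of 18 tested past limma's test (median 0.09). An unadjusted p under 0.05 was found for 5 of the 18, against 19.9% of all tested genes. Tirap, which links TLR2 and TLR4 to MyD88, was at 1.15 and 1.49 FPKM in WT and at 2.81 and 3.19 FPKM in Apoe-/- libraries, 2.27-fold apart in mean and without overlap (0.79, interval 0.42 to 1.16, adjusted p = 0.0762 by limma). It passed without Apoe-/- replicate 1 (adjusted p = 0.0182) or 2 (0.0420), where the remaining Apoe-/- library is taken to vary as the WT libraries do; over all settings adjusted p ran from 0.00940 to 0.187. Traf3, a ubiquitin ligase of the TRIF and MyD88 branches, was at 24.1 ± 1.23 and 18.6 ± 0.337 FPKM (-0.36, adjusted p = 0.153 by limma), and the kinase gene Ikbke, the most abundant of the list, at 102 ± 7.19 and 101 ± 2.196 FPKM (adjusted p = 0.989).

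Inhibitors of TLR signaling had 0 of 7 past limma's test (median -0.16). An unadjusted p under 0.05 was found for 3 of the 7, against 19.9% of all tested genes. Sigirr, an inhibitory receptor that dampens IL-1 and TLR signals, was at 48.3 and 43.1 FPKM in WT and at 67.0 and 64.7 FPKM in Apoe-/- libraries (0.52, interval 0.26 to 0.78, adjusted p = 0.0858 by limma). Tnfaip3, which encodes the deubiquitinase A20 and was the most abundant of the list, was at 562 and 582 FPKM in WT and at 426 and 459 FPKM in Apoe-/- libraries (-0.37, interval -0.58 to -0.17, adjusted p = 0.0988 by limma). The genotypes did not overlap for either gene. Tlr12, which pairs with TLR11 to bind a protozoan profilin, was the 1 tested gene among the other Toll-like receptors and had an adjusted p of 0.387 by limma (0.34, interval -0.13 to 0.81).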

How the data were processed

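RNA sequencing values of 4 libraries (2 WT, 2 Apoe-/-) were analysed. The authors deposited 1 table of FPKM per gene symbol and library; per the submitters' processing notes, which give neither order nor settings, the tools were Cuffdiff 2.2.0, TopHat2 2.0.13 and CASAVA 1.8.2 and the build mm10. Not given in the sources used here are the annotation, strand setting, read length and the handling of fragments that match several genes. In 2 rows a space stood where a tab belongs, and these were split on white space. FPKM are not counts, so limma 3.58.1 in R 4.3.3 (lmFit, eBayes with trend, two-sided) was run on log2(FPKM + 1) of the 11187 genes whose mean FPKM reached 1. P-values were adjusted by Benjamini-Hochberg over these 11187 genes, and the threshold was 0.05. The procedure was tested on simulated data, with 100 genes changed by a log2 difference of 1 and 100 by 2. It recovered 69% and 96% of these, and 12 of its 177 calls were false. Noise was drawn independently for each library, whereas in the data deviations correlated at 0.21 between libraries of equal number. The rates may therefore differ in the data. Smaller changes, such as those of the 10 genes described, were not simulated. Low FPKM are understated as differences on this scale, and fold values are ratios of mean FPKM.

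Read depth is unknown. For each pair of libraries the ratios of genes low in both (0.001 to 0.15 FPKM) were compared. Libraries of equal replicate number shared 1 ratio, within a window of 0.04 in log2, in 16.3% and 12.5% of these genes. In the other 4 pairs the share was 2.74% to 3.73%, and differences within each number are therefore given. Gene positions are from RefSeq (GRCm38.p6), and sequences, exon overlaps and the 50-base words from GENCODE M21 (GRCm38). Adgre1 was matched by an older symbol, and 1 gene of the B cell marker list is not reported here. The members and gene lists were chosen with earlier results of these data known. All members are named; from each pathway list the called genes, or else the 2 with the smallest p, and the most abundant gene; from each marker list the called and the 2 most abundant genes. Alternatives were a pseudocount of 0.1, no filter, a mean FPKM of 5 or more, rescaling to one FPKM total or by median ratios, no trend, the replicate number as a block, and leaving out each library.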

Additional observations from a re-analysis of the deposited data

How the results depend on the processing

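With 2 libraries a genotype, leaving 1 out takes the remaining one to vary as the other group does, and FPKM carry no depth. None of the 10 genes passed in any of the 10 alternatives without the block, of which a mean FPKM of 5 or more tested 4 of them (Tlr1, Irak4, Ly96 and Myd88). The labels do not say that the replicate number pairs libraries; deviations from the group means correlated at 0.21 between libraries of equal number. With the number as a replicate block 2 of the 10 passed, Tlr1 (adjusted p = 0.0241; 0.0241 to 0.759 over all settings) and Tlr6 (0.0233; 0.0233 to 0.352), as did 28 of the 50 pathway genes, among them Lgmn, Hsp90b1, Tirap, Traf3, Sigirr, Tnfaip3 and Nfkbiz (adjusted p = 0.000847 to 0.0140). Under the block 32.9% of all tested genes passed, 1908 higher and 1776 lower. Over all genes 106 were higher and 99 lower. These counts were 35 and 41 with no filter and 51 and 71 with a mean FPKM of 5 or more. Leaving out 1 library gave 54 to 317 higher and 61 to 301 lower genes. Without WT replicate 1 there were 65 higher and 61 lower genes. Without WT replicate 2 the counts became 54 and 67. Leaving out Apoe-/- replicate 1 gave 257 and 164, and leaving out its replicate 2 gave 317 and 301. Of the 5 called pathway genes, 1 passed with no filter, where more genes were tested and the limma fit was rerun with them. The cause of the lost calls was not tested for this or the other settings. The sign of small differences turned: that of Tlr4 was -0.00094 with libraries rescaled to one FPKM total. With 1 library left out, Tlr2 ranged from -0.132 to 0.0525, Tlr4 from -0.0427 to 0.101, Tlr7 from -0.223 to 0.208, Irak4 from -0.0628 to 0.182, Ly96 from -0.662 to 0.264, Ctss from -0.0221 to 0.143, Ikbke from -0.0750 to 0.0679 and Cd3e from -0.00336 to 0.118. Tlr1, Tlr6, Myd88 and Cd14 stayed above 0 and Tlr9 below 0 in all settings run. The median difference of all genes moved from 0.00 to -0.04 with one FPKM total and to -0.02 with median ratios.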
